A study of Mus musculus with 5 samples.

Results

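Slc2a2, Slc5a1, Slc2a5 and Khk encode proteins that carry dietary hexoses across the intestinal epithelium or start the breakdown of fructose. They were chosen by symbol and are 4 of the 27998 genes in the deposited gene table. All 4 were found once, and each had counts in every library. Their levels were followed across the epithelial cell types of the mouse ileum after small bowel resection, the surgical removal of a stretch of the small intestine, and after sham surgery.

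The data are droplet single-cell RNA profiles of the distal small intestine from C57BL/6 mice of 8 to 12 weeks. The sham group held 3 libraries (sham 1, 2 and 3) and the resection group 2 (resection 1 and 2), and the labels name no genotype or drug that sets the groups apart. The length of bowel removed and the time since surgery are not used here. Nothing in the labels says that the libraries came from separate animals, so the p-values measure the spread between these libraries, which may be technical.

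Absorption of hexoses runs from the gut lumen through the mature enterocytes of the villus. Slc5a1 encodes SGLT1, the sodium-driven cotransporter of the apical membrane for glucose and galactose. Slc2a5 encodes GLUT5, the apical fructose transporter. Slc2a2 encodes GLUT2, a facilitative transporter of glucose, galactose and fructose best known from the basolateral membrane. Khk encodes ketohexokinase, which phosphorylates fructose inside the cell to fructose-1-phosphate.

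In the GRCm38 build, Slc2a2 (ENSMUSG00000027690, 11 exons) lies on the plus strand at chr3:28697903-28731359 and Slc5a1 (ENSMUSG00000011034, 15 exons) at chr5:33104219-33162870, in the GENCODE M21 annotation. Slc2a5 (ENSMUSG00000028976, 14 exons) lies at chr4:150119283-150144169 and Khk (ENSMUSG00000029162, 8 exons) at chr5:30921431-30931248, both also on the plus strand. The 3′ end of Slc2a2, where these libraries are read, is overlapped by the antisense gene 1700112D23Rik, which was counted separately and had 1 UMI over all classes and libraries. Whether the counting used strand is not given in the sources used here.

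The 250 bases before the annotated start are shown for Slc2a2 and Slc5a1, the member with the largest difference between the surgery groups and the apical glucose cotransporter of the same route. They are RefSeq sequences of GRCm38.p6, from chr3:28697653-28697902 and chr5:33103969-33104218, plus strand, 5′ to 3′, and capitals mark a motif match.
Slc2a2: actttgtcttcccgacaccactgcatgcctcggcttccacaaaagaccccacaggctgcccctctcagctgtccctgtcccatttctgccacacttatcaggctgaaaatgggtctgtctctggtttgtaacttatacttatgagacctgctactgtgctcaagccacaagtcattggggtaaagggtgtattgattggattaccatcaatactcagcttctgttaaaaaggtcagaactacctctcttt
Slc5a1: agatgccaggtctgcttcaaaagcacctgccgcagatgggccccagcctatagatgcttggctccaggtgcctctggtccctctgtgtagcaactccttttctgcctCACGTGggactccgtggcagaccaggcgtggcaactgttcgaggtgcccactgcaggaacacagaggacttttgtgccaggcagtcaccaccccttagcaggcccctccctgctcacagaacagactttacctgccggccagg
Windows of the same length before all 32851 RefSeq gene starts were the background. The letters CACGTG, which read the same on both strands and are the core of the E-box, stand 143 bases before the Slc5a1 start and were found in 6.02% of the background windows. The other motifs searched on both strands were the TATA box (TATAAA, in 12.4% of windows), an HNF1 half-site (GTTAAT, 6.43%), a GATA site (AGATAA, 9.99%), a CDX site (TTTATG, 10.8%) and an HNF4 site (CAAAGTCCA, 0.384%). None of these was found in the Slc2a2 or Slc5a1 window. The Slc2a2 window is 47.2% G and C with 2 CpG, and the Slc5a1 window 60.0% with 6 CpG, against medians of 52.4% and 6 over all windows. The windows of Slc2a5 and Khk are not printed because they run past the 5′ ends that GENCODE gives these genes. The Khk window held CACGTG 71 bases and the HNF1 letters 60 bases before its RefSeq start, and the Slc2a5 window none of the 6 motifs. A match describes letters and shows no binding.

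The filters kept 18235 of 19404 cells. Totals ran from 11749000 to 41281643 UMIs (unique molecules counted) per library, with a median per cell of 4541 to 6239.5. The largest class was enterocyte-like with 10049 cells (55.1%), followed by immature enterocyte-like with 4343 (23.8%), Paneth-like with 1079, cycling-like with 925, stem-like with 763, goblet-like with 592 and T cell-like with 457. A group of 27 tuft-like cells was too small to test. The stem-like class was led mostly by S-phase genes, Hells, Dut and Mcm6 among them, with Slc12a2 and Cdca7 as the stem markers among its leading genes. Of the Paneth-like cells, 1 cluster took 219 of its 253 cells from sham 1, and the Paneth-like cells of the other libraries were mostly in another cluster. The libraries were grouped in 2 sets from what was seen in these data, not from the labels. Sham 1 and resection 1 (set A) had a median mitochondrial share of 13.7% and 11.7% per cell, and sham 2, sham 3 and resection 2 (set B) of 8.54%, 7.24% and 9.19%. These shares also spread within each set, and the Paneth-like cells of resection 1 clustered with those of set B. The labels name no batch, so differences are also given within each set, where set A has 1 library per group. Any pair of libraries shared 6 to 47 cell barcodes.

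Slc2a2 was the member whose level differed most between the groups. Counts were summed per library and class and scaled to a common library total (CPM). In enterocyte-like cells Slc2a2 had 8.56, 9.72 and 4.98 CPM in sham 1, 2 and 3, against 179 and 88.7 CPM in resection 1 and 2, from 35, 80 and 49 against 2371 and 1600 UMIs. Every resection value lay above every sham value, as for 11.8% of the genes tested in this class. The lower resection library was 9.13 times the highest sham library. The means were 7.75 ± 2.47 (SD, n = 3) and 134 ± 64.1 CPM (SD, n = 2), a 17.3-fold ratio.

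Slc2a2 ranked first of the 10202 genes tested in enterocyte-like cells by p-value, but did not pass the threshold of 0.05 in the edgeR quasi-likelihood test. Its log2 fold change was 4.10 ± 0.43 (SE), with an unadjusted p of 1.79e-05 and a Benjamini-Hochberg adjusted p of 0.183. In that test 0 of the 10202 genes passed in either direction (0% called), while 536 (5.25%) had an unadjusted p below 0.05 and DESeq2 called 67. With the library set as a term in the same edgeR model the difference passed, at 3.88 ± 0.30 (SE) with an adjusted p of 0.00719, and 15 genes were higher (0.147%) and 2 lower (0.0196%). The sets were drawn from these same data, so calls with this term are not independent of them. DESeq2 gave 4.10 with an adjusted p of 2.14e-15. Within set A the log2 difference was 4.24, and within set B it was 3.49. The high Slc2a2 level in these resection libraries was known before these tests were chosen, so the tests are not independent evidence for it. In a sum of this kind, more cells with the transcript and more transcript per cell cannot be told apart.

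**Figure D1:**
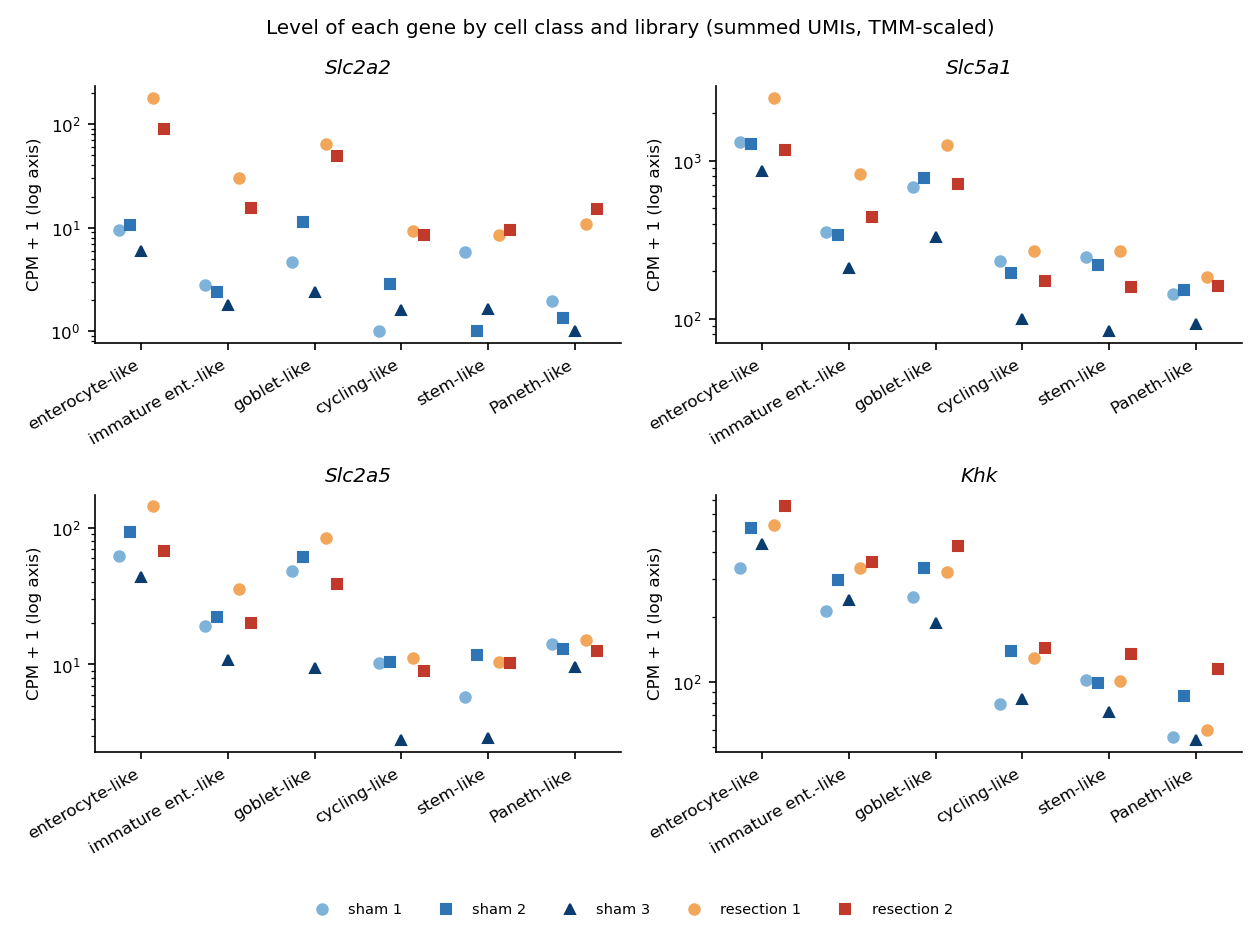
Levels of the 4 genes (CPM + 1 on a log axis) in each epithelial class, with 1 point per library and sham and resection libraries in different colours. Slc2a2 in enterocyte-like cells lies between 4.98 and 9.72 CPM in the sham libraries and at 88.7 and 179 CPM in the resection libraries, while the Slc5a1 and Slc2a5 points of the groups overlap there.

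For the apical transporters the groups overlapped in enterocyte-like cells. Slc5a1 had 1309, 1271 and 864 CPM in sham 1, 2 and 3 and 2502 and 1175 CPM in resection 1 and 2, so that resection 2 lay within the sham range. Its log2 fold change was 0.66 ± 0.42 (SE), with an adjusted p of 0.999 in edgeR's quasi-likelihood test. Within set A the log2 difference was 0.93 and within set B 0.17. Without resection 1 it came to 0.0027, so the pooled value rested on that library.

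Slc2a5 behaved much like Slc5a1. Its levels were 61.1, 91.3 and 42.6 CPM in the sham libraries and 142 and 66.8 CPM in the resection libraries. The log2 fold change was 0.66 ± 0.43 (SE), with an adjusted p of 0.999 in the same edgeR test. It was 1.21 within set A, 0.10 within set B and 0.011 without resection 1. Of the resection libraries only resection 1 was above the sham range, and no difference of Slc5a1 or Slc2a5 was detected.

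Khk, the fructose kinase, was higher in both resection libraries by a small margin. It had 337, 515 and 438 CPM in the sham libraries and 532 and 652 CPM in the resection libraries. The groups did not overlap, which was true of 11.8% of the genes tested in that direction, so this alone does not set Khk apart. The means were 430 ± 89.2 (SD, n = 3) and 592 ± 85.3 CPM (SD, n = 2), a ratio of 1.38. The log2 fold change was 0.44 ± 0.31 (SE), with an adjusted p of 0.999 in edgeR's quasi-likelihood test, 0.66 within set A and 0.46 within set B. With the library set as a term it was 0.51 ± 0.20 (SE), with an unadjusted p of 0.0355 and an adjusted p of 0.440.

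The proportion between members was also compared, as a log2 ratio of TMM-scaled CPM within each library. A pseudocount of 1 CPM was added to each level, so the ratio is not free of scaling where a level is low. The ratio of Slc2a2 to Slc5a1 in enterocyte-like cells was -7.10, -6.89 and -7.18 in the sham libraries and -3.79 and -3.71 in the resection libraries. The resection values lay 3.30 above the sham values on average, and the groups did not overlap. A two-sided exact permutation test gave p = 0.1, the smallest that 3 against 2 libraries allow, and 0.2 after Benjamini-Hochberg adjustment over 12 ratios. By the same measure Slc2a2 to Slc2a5 moved from -2.70, -3.11 and -2.87 to 0.33 and 0.41. Both ratios hold the Slc2a2 level, so they are not results apart from its difference. The share of other gene pairs without overlap was not computed. The ratio of the apical pair, Slc5a1 to Slc2a5, was 4.40, 3.78 and 4.31 in the sham libraries and 4.13 and 4.12 in the resection libraries, a difference of -0.04 with an exact permutation p of 1.0.

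**Figure D2:**
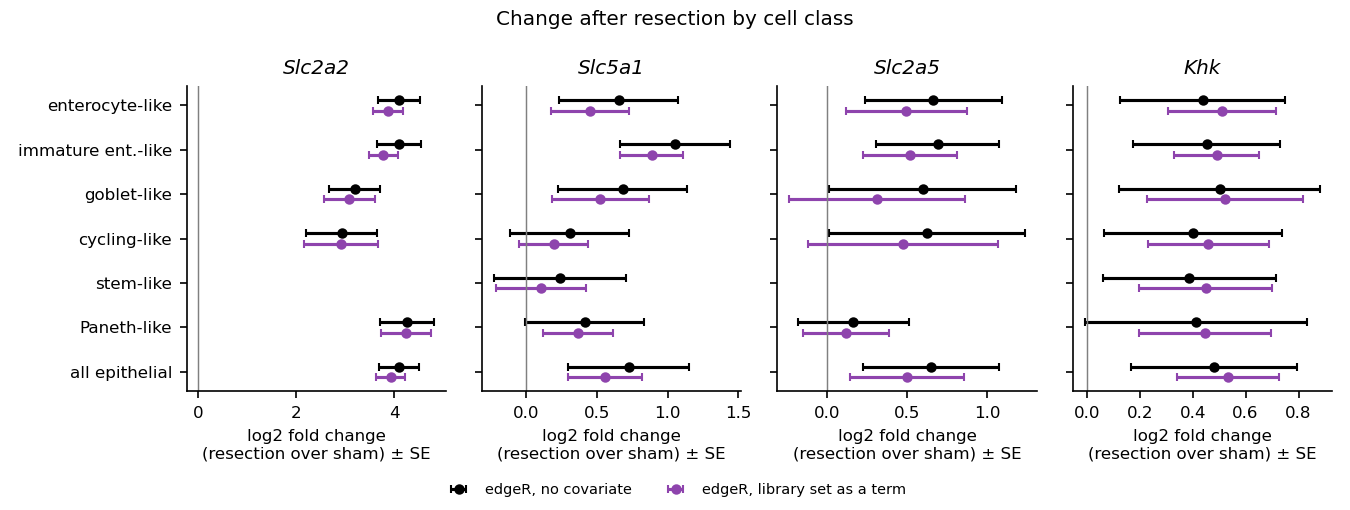
Log2 fold change (resection over sham) of each gene in each class from edgeR, without a covariate (black) and with the library set as a term (purple), with bars of 1 SE. Without a covariate Slc2a2 lies between 2.93 and 4.27 in the classes where it was tested, and the other members lie at or below 1.05.

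The members were also measured outside the mature enterocytes. In immature enterocyte-like cells, the cells between crypt and villus, Slc2a2 had 1.81, 1.37 and 0.795 CPM in the sham libraries and 29.1 and 14.6 CPM in the resection libraries. In edgeR the log2 fold change there was 4.10 ± 0.45 (SE; adjusted p = 0.207). With the library set as a term it was 3.79 (adjusted p = 0.00167), and 8 of 10043 genes were called higher (0.0797%). The sham sums held 4, 7 and 4 UMIs against 194 and 117, so the gene passed the filter on low counts through the resection libraries and this call does not support a difference on its own. In the same class both resection libraries were above all sham libraries for 7.9% of the genes tested, and for Slc2a2, Slc5a1 and Khk. Slc5a1 had 352, 339 and 208 CPM against 824 and 438 CPM, which edgeR put at 1.05 ± 0.39 on the log2 scale (SE; unadjusted p = 0.0277, adjusted p = 1.0). Khk had 213, 295 and 239 CPM against 336 and 357 CPM. The class was made of a cluster led by Gsdmc4 and Gsdmc2 and a smaller one led by Gsta1 and Ms4a18, in which none of the leading genes is an immature marker. The smaller cluster held 141 of the 194 and 83 of the 117 Slc2a2 UMIs of resection 1 and 2, at 91.0 and 33.1 CPM, against 12.2 and 5.39 CPM in the larger. Cluster values are plain CPM, without the TMM scaling of the class values. Slc5a1 in the larger cluster had 277, 202 and 119 CPM in the sham libraries and 529 and 217 CPM in the resection libraries, with resection 2 in the sham range, and in the smaller 792, 514 and 318 CPM against 2061 and 850 CPM. So for Slc5a1 the lack of overlap in the class was also found in the smaller cluster, and not in the larger. Slc2a5 overlapped between the groups over the class, with 18.1, 21.4 and 9.74 CPM against 34.4 and 19.3 CPM.

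In the secretory classes Slc2a2 passed the edgeR threshold without a set term, on few sham counts. It passed the filter on low counts through the resection libraries, so these calls do not support a difference on their own. Goblet-like cells, the mucus makers, had 3.64, 10.3 and 1.40 CPM in the sham libraries and 63.8 and 48.5 CPM in the resection libraries, with 1, 9 and 1 against 37 and 58 UMIs. The log2 fold change was 3.20 ± 0.52 (SE, adjusted p = 0.0468), and 4 of 6427 genes were called higher (0.0622%). With the library set as a term it was 3.09, with an adjusted p of 0.0707, so the call was lost, while 3 other genes were called higher (0.0467%). Both resection libraries were above all sham libraries for 11.7% of the genes in this class, among members for Slc2a2 only. Paneth-like cells, the makers of antimicrobial peptides, had 0.945, 0.330 and 0 CPM against 9.86 and 14.1 CPM, from 4, 1 and 0 against 32 and 44 UMIs. The edgeR log2 fold change was 4.27 ± 0.55 (SE, adjusted p = 0.00968), 1 of 2 genes called higher of 6655 tested (0.0301%). With the library set as a term it was 4.25 with an adjusted p of 0.00129, and 7 genes were called higher (0.105%). Slc5a1 also did not overlap between the groups in Paneth-like cells, with 142, 152 and 91.7 CPM against 183 and 160 CPM, as 6.64% of the genes there. Without TMM scaling they did overlap, with 149 CPM in sham 2 and 146 CPM in resection 1. Without sham 2 or without sham 3 the Paneth-like call was lost, with edgeR adjusted p of 0.106 and 0.119.

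Enterocyte RNA was present in these classes, at a level near that of the members. The CPM of Alpi, Fabp2 and Anpep, brush-border and fatty-acid-binding markers of enterocytes, was taken as a percentage of the enterocyte-like CPM in the same library. In Paneth-like cells these markers stood at 4.84 to 6.41% in resection 1 and 19.1 to 21.2% in resection 2. The members stood at 4.03 to 8.13% and 21.6 to 27.5% in the same libraries. In goblet-like cells the markers ranged over 38.0 to 68.3% in the 5 libraries, and the members from 21.6% (Slc2a5) to 105% (Slc2a2). In T cell-like cells, which are not epithelial, the markers ranged over 51.9 to 78.3% and Slc5a1 over 46.7 to 78.8%. Slc2a2 there had 4.84, 5.36 and 8.54 CPM in the sham libraries and 82.6 and 47.5 CPM in the resection libraries, from 1, 3 and 3 against 20 and 64 UMIs. The part of enterocyte RNA in the secretory results was not tested.

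**Figure D3:**
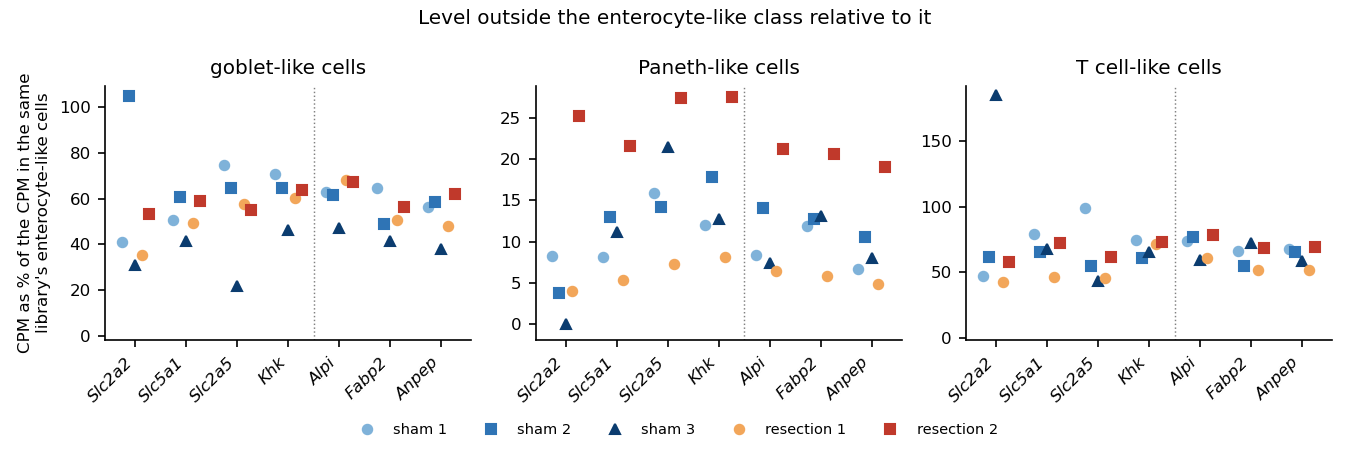
Level of each gene in a class as a percentage of its enterocyte-like CPM in the same library, for the 4 members and for the enterocyte markers Alpi, Fabp2 and Anpep, with 1 point per library. In resection 2 all 7 genes stand higher in Paneth-like cells (19.1 to 27.5%) than in resection 1 (4.03 to 8.13%), and the Slc2a2 points farthest from the markers, up to 185% in T cell-like cells, rest on few UMIs.

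The order of the classes was similar for the members, on the scale of the enterocyte-like CPM of the same library averaged over the 5 libraries. Enterocyte-like cells were highest, and above goblet-like cells in 5 of 5 libraries for Slc5a1, Slc2a5 and Khk and in 4 of 5 for Slc2a2. Goblet-like cells came next, at 52.1 to 61.2% for the 4 genes, and immature enterocyte-like cells followed. For Khk these neighbours did not differ beyond their spread, since goblet-like cells (61.2 ± 9.10%, SD) exceeded immature ones (58.7 ± 5.65%, SD) in only 3 of 5 libraries. Slc2a2 in immature cells came to 16.8 ± 2.71% (SD, n = 5), Slc2a5 to 25.8 ± 3.14% and Slc5a1 to 29.6 ± 5.59%. The enterocyte markers stood at 12.9 to 36.5% in the immature cells, and Khk at 53.8 to 66.1%. Khk was nearer to its enterocyte-like level in the immature cells than the 3 transporters in every library. Stem-like, cycling-like and Paneth-like cells were lowest for all 4 genes, and most neighbours among them did not differ beyond the spread between libraries. In stem-like cells Slc2a2 and Slc2a5 had too few counts to be tested. Slc2a2 there had 4.80, 0 and 0.634 CPM against 7.48 and 8.47 CPM without overlap, as 7.56% of the genes tested. In cycling-like cells Slc2a2 had 0, 1.88 and 0.603 CPM against 8.24 and 7.53 CPM, 2.93 ± 0.73 on the log2 scale (SE; edgeR adjusted p = 1.0), and 7.17% of the genes there did not overlap in that direction. Over all epithelial cells together, Slc2a2 had 4.69, 5.22 and 2.45 CPM against 90.6 and 51.4 CPM, 4.10 ± 0.42 on the log2 scale (SE; edgeR adjusted p = 0.277). With the library set as a term it was 3.93 (adjusted p = 0.0108), and 3 of 11690 genes were called higher (0.0257%). Both resection libraries exceeded all sham libraries there for 9.06% of the genes, for Slc2a2, and for Slc5a1 by less than 1 CPM (741.3 against 740.5). Whether the difference between the surgery groups varied with the class was compared for 20 pairs of class and gene by exact permutation tests, and all had an adjusted p of 1.0.

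The share of cells with at least 1 UMI was compared after every cell was thinned to 2000 UMIs, which left out no cell. Of the enterocyte-like cells, 2.31%, 1.99% and 1.14% had a Slc2a2 UMI in sham 1, 2 and 3, against 30.8% (exact 95% binomial interval 28.9 to 32.8%) in resection 1 and 15.7% (14.5 to 16.8%) in resection 2. The intervals cover counting error only. Both resection shares lay far above the sham shares, by 21.4 percentage points on average, with an exact two-sided permutation p of 0.1, the smallest possible, and 0.267 after adjustment over 24 tests. Unthinned, the shares were 5.62%, 3.82% and 3.29% against 58.8% and 30.5%. Among positive cells the sham libraries had 1 thinned UMI per cell throughout, and the resection libraries 1.31 and 1.12 with at most 6 and 4. A count per positive cell goes up with the share of positive cells by sampling alone, so it is not a separate difference.

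As a background, thinned Slc2a2 was found in 0%, 0.392% and 0% of Paneth-like cells in the sham libraries and in 1.12% and 3.33% in the resection libraries. A count of 0 allowed up to 1.35% in sham 1 and 2.44% in sham 3. In T cell-like cells it was found in 0 of the cells of each sham library, which allowed up to 9.38%, 2.59% and 6.82%, in 18.8% of resection 1 and in 4.72% of resection 2. The 18.8% stands for 6 of 32 cells. The unthinned median depth was 4023.5 to 5885 UMIs in enterocyte-like cells of the 5 libraries, 5917.5 to 19452 in Paneth-like cells and 4097 to 6702.5 in T cell-like cells. The sham enterocyte-like shares of Slc2a2 lay under the T cell-like limits of the same libraries, so those cells cannot set them apart from background. In resection 1 the T cell-like share had an exact 95% interval of 7.21 to 36.4%, which holds the enterocyte-like 30.8%, and in resection 2 the T cell-like 4.72% was below the enterocyte-like interval.

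**Figure D4:**
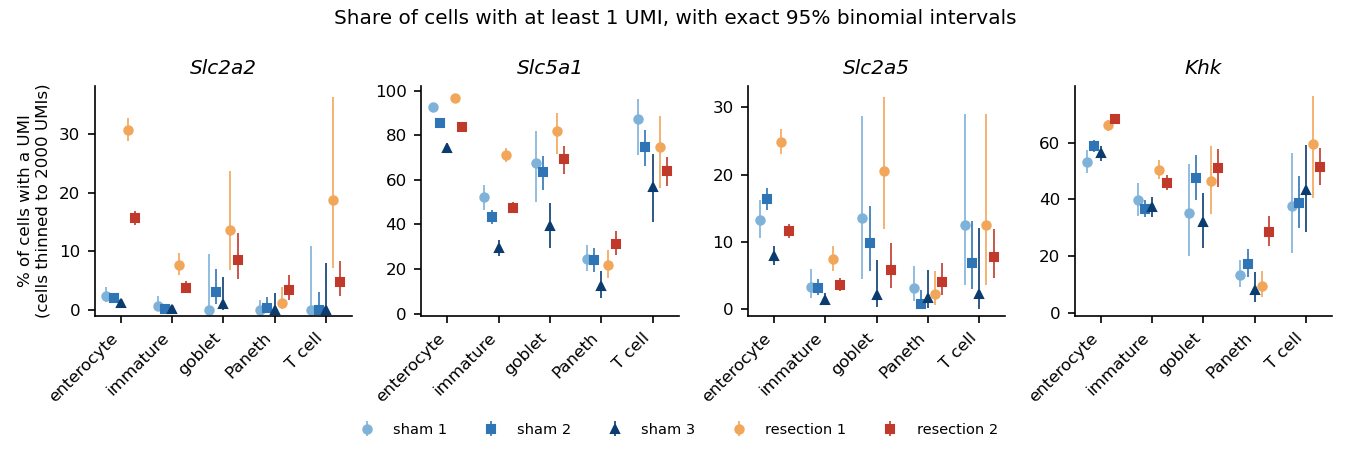
Percentage of cells with at least 1 UMI of each gene after thinning every cell to 2000 UMIs, by class and library, with exact 95% binomial intervals. Slc2a2 in enterocyte-like cells goes from at most 2.31% in the sham libraries to 15.7 and 30.8% in the resection libraries, and Slc5a1 is found in 74.3 to 97.0% of those cells in every library.

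Slc5a1 was found in most enterocyte-like cells of both groups, in 92.7%, 85.7% and 74.3% of the sham libraries and 97.0% and 83.7% of the resection libraries. In immature enterocyte-like cells it was found in 52.2%, 43.3% and 29.4% against 71.4% and 47.5%, with resection 2 inside the sham range. Slc2a5 was found in 13.2%, 16.3% and 7.86% of enterocyte-like cells in the sham libraries and 24.9% and 11.6% in the resection libraries. Khk was found in 53.2%, 58.9% and 56.2% against 66.1% and 68.2%. In Paneth-like cells the thinned shares over the 5 libraries were 12.2 to 31.3% for Slc5a1, 0.784 to 4% for Slc2a5 and 8.13 to 28.7% for Khk. In T cell-like cells they were 56.8 to 87.5%, 2.27 to 12.5% and 37.5 to 59.4%. The Slc5a1 share of immature cells was below that of the T cell-like cells in each library, so no expression in immature cells was read from it. The Khk difference in enterocyte-like cells, 11.1 percentage points, had an exact permutation p of 0.1 and an adjusted p of 0.267.

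Cells with several members together were also counted, and whether their numbers go beyond what the single shares give was not tested. All 4 genes were found in 0, 3 and 2 enterocyte-like cells of the sham libraries, and in 110 (4.99%) and 62 (1.60%) of resection 1 and 2. Cells with none of the 4 made up 3.31%, 6.36% and 11.9% of the sham libraries and 0.635% and 4.85% of the resection libraries. Among Slc2a2-positive cells of resection 1 and 2, 98.2% and 89.0% also had Slc5a1, against 96.5% and 82.7% of the Slc2a2-negative cells. With Slc5a1 found in most cells of the class and in 56.8 to 87.5% of T cell-like cells, nothing about expression in the same cell was read from this.

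Enterocyte-like and immature enterocyte-like cells were ordered from villus base to tip by 9 base and 9 tip genes, none of them a member, and cut into 4 equal bins per library. The lowest bin was mostly immature enterocyte-like. A bin is a share of each library's cells and did not hold like cells in both groups. In bin 2 from the base, 38.1, 40.2 and 37.5% of sham cells were immature enterocyte-like, against 22.4 and 27.0% of resection cells. In the top bin Ada, a tip gene, had 101, 47.5 and 21.5 CPM against 205 and 420 CPM. So group differences per bin, in slope or in peak bin cannot be read as differences at one villus position, for any member. The Slc2a2 means from base to tip were 1.68, 4.02, 5.61 and 12.1 CPM in the sham libraries and 31.1, 114, 152 and 132 CPM in the resection libraries. The resection means were 18.5, 28.4, 27.0 and 10.9 times the sham means. The ratio of top to bottom bin overlapped between the groups, with log2 values of 1.86, 2.78 and 2.57 against 1.90 and 2.37.

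For Slc5a1 the sham means were 330, 734, 1080 and 1440 CPM from base to tip and the resection means 751, 1832, 1908 and 1731 CPM. The ratio of the means was 2.28, 2.49, 1.77 and 1.20 in that order. The log2 ratio of top to bottom bin was 1.88, 2.22 and 2.51 in the sham libraries and 1.26 and 1.07 in the resection libraries. The groups did not overlap in this slope, with a difference of -1.04, an exact two-sided permutation p of 0.1 and an adjusted p of 0.4 over the 4 members. The share of all genes without overlap in such a slope was not computed. As the bins did not hold like cells, no group difference was read from it. Slc5a1 was highest in the top bin in all 3 sham libraries and in the bin below it in both resection libraries, with 2645 against 2522 CPM in resection 1, nearly level, and 1172 against 939 CPM in resection 2.

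Khk was also highest in the top of 4 bins in the 3 sham libraries and in the bin below it in both resection libraries, but with 3 bins resection 2 was highest in its top bin. The Khk means were 244, 344, 411 and 473 CPM in the sham group and 355, 562, 618 and 571 CPM in the resection group. Slc2a5 went from 17.8 to 43.5, 64.7 and 71.0 CPM in the sham group and from 33.5 to 89.7, 110 and 113 CPM in the resection group. Its log2 ratio of top to bottom bin was 1.73, 1.92 and 2.32 against 1.77 and 1.62.

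**Figure D5:**
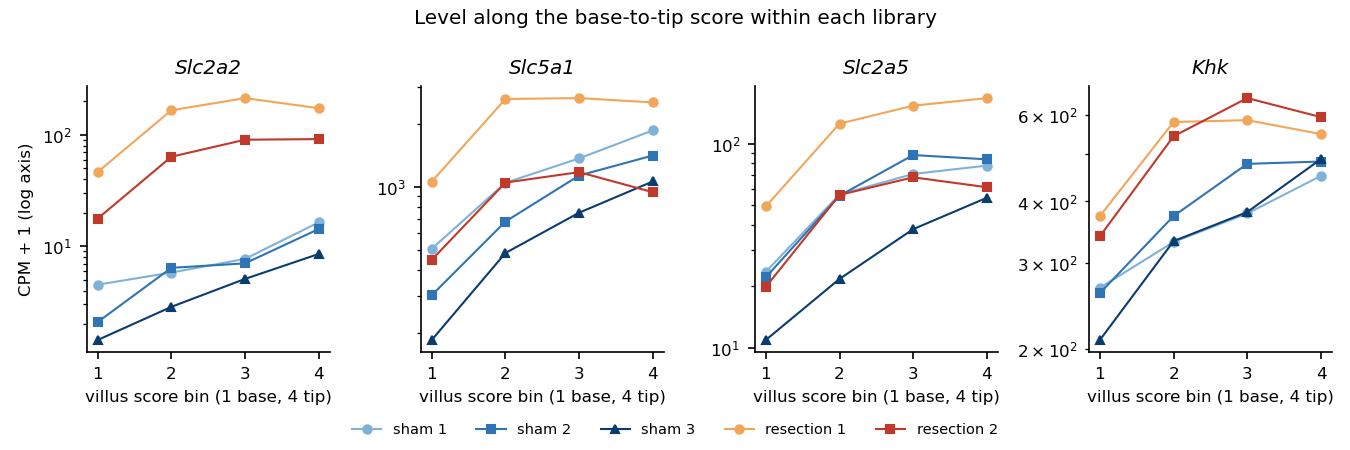
Level of each gene (CPM + 1, log axis) in 4 equal bins of enterocyte-like and immature enterocyte-like cells from villus base to tip, with 1 line per library. The Slc2a2 lines of the resection libraries lie above all sham lines in every bin. The Slc5a1 lines are highest in the top bin in the sham libraries and in the bin below it in the resection libraries. The bins do not hold like cells in both groups.

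The enterocyte-like clusters held different Slc2a2 levels. The cluster led by Lct, Fabp1 and Apoa4 had 19.4, 17.2 and 13.1 CPM in the sham libraries and 241 and 117 CPM in the resection libraries. The cluster led by Areg and Edn1 had 3.86, 2.26 and 0.327 CPM against 116 and 36.5 CPM, and the cluster led by Ada, a gene of the villus tip, 18.4, 17.1 and 27.5 CPM against 142 and 62.1 CPM. In each of these 3 clusters both resection libraries were above all sham libraries, which was not particular to them. The cluster led by Ccl20, Saa1 and Maf had 8.22, 9.18 and 6.22 CPM against 242 and 110 CPM. The cluster led by Ccl20, Adm and Nos2 had 14.1, 9.39 and 4.07 CPM against 259 and 117 CPM. The share of all genes without overlap was not computed per cluster, and was 11.8% in that direction over the whole class. A cluster led by Sgk1, Pck1 and Angptl4 took 693 of its 879 cells (78.8%) from resection 1. Without it the enterocyte-like log2 fold changes were 4.11 for Slc2a2, 0.57 for Slc5a1, 0.47 for Slc2a5 and 0.44 for Khk, and Slc2a2 passed with the library set as a term (3.87, edgeR adjusted p = 0.0187).

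Other genes of hexose handling and of the same transporter families were taken as 9 lists of 68 genes, of which 57 could be tested in enterocyte-like cells. None passed the edgeR threshold without a set term, 10 had an unadjusted p below 0.05, and 1, Fbp1, passed with the library set as a term. The log2 difference was above 0 for 37 and below 0 for 20, with a median of 0.20 against -0.019 over all genes tested. Both resection libraries lay above all sham libraries for 17 of the 57 and below them for 4, against 11.8% and 7.51% of all genes tested.

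The brush-border disaccharidases, which release the hexoses that Slc5a1 and Slc2a5 take up, had the highest median, 1.07, and for all 4 both resection libraries exceeded every sham library. Lct, which encodes lactase, had 74.6, 82.1 and 30.7 CPM in the sham libraries and 756 and 306 CPM in the resection libraries, a log2 difference of 3.07 ± 0.54 (SE; edgeR adjusted p = 0.271). For Treh (trehalase), Sis (sucrase-isomaltase) and Mgam (maltase-glucoamylase) it was 1.31, 0.83 and 0.73. Of the other genes of the SLC2 transporter family, not all of them for glucose, 4 of 10 had enough counts to be tested. They were Slc2a7 at 0.86, Slc2a8 at 0.78, Slc2a9 at 0.15 and Slc2a13 at -1.16. Among the other listed SLC5 cotransporters the tested 4 were Slc5a4b at 0.82, Slc5a11 at 0.78, Slc5a9 at 0.55 and Slc5a4a at -0.49.

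The genes of fructose and sorbitol metabolism had log2 differences from -0.36 (Akr1b3) to 0.53 (Glyctk). For 0 of the 5 did the groups fail to overlap. Tkfc, which phosphorylates glyceraldehyde, had 0.37, and Sord, the sorbitol dehydrogenase, 0.48. Of the 5 gluconeogenesis genes all were above 0, with a median of 0.92. Fbp1, the fructose-1,6-bisphosphatase, had 2.93, 12.0 and 10.5 CPM against 21.6 and 38.3 CPM, with 1.76 ± 0.49 (SE, edgeR adjusted p = 0.677) and an adjusted p of 0.0248 with the library set as a term. G6pc, the glucose-6-phosphatase, had 2.15. The glycolysis list had a median of -0.010, and its Hk2, a hexokinase, had 65.3, 23.9 and 158 CPM against 5.52 and 14.3 CPM, a log2 difference of -3.08 ± 0.82 (SE; edgeR adjusted p = 0.619). Galactose breakdown had a median of 0.012 and the sodium pump, which drives Slc5a1, of 0.19. The regulator list had a median of -0.047, with Mlxipl, which encodes the sugar-responsive factor ChREBP, at 0.80, Gata6 at 0.74, Txnip at 0.64 and Hnf4g at 0.56.

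The genes with the pattern most like each member were found by Pearson's r of log2(CPM + 1) over the 30 sums of 5 libraries and 6 classes, among 4423 genes. The sums share libraries, so no p is given. For Slc2a2 these were Apoa4 (r = 0.935), Apoc3 (0.927) and Slc5a12 (0.910). For Slc5a1 they were Dpp4 (0.966), Clec2e (0.964) and Btnl2 (0.964), for Slc2a5 Gpt (0.958), Ace (0.948) and 2010106E10Rik (0.943), and for Khk Smim24 (0.980), Cyp4f14 (0.973) and Mogat2 (0.973). The search held genes with a mean of at least 20 CPM in enterocyte-like cells. Slc5a12 had 4.16, 9.84 and 3.55 CPM there in the sham libraries and 68.6 and 29.1 CPM in the resection libraries. It met the limit only through the resection libraries, while Apoa4 and Apoc3 were above it in every library. Such a mean lets in genes high only in the resection libraries, so likeness to Slc2a2 is not free of this choice. Among the members, r was 0.932 for Slc5a1 and Slc2a5, 0.891 for Slc5a1 and Khk, 0.810 for Slc2a5 and Khk, and 0.673 to 0.733 for Slc2a2 with each of the others.

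Markers of other cell types were also summed within the enterocyte-like cells. The summed CPM of 8 T cell markers was 24.3 to 57.0 in the sham libraries and 15.7 and 50.3 in the resection libraries. For 7 goblet markers it was 577 to 1247 against 517 and 754, and for 7 Paneth markers 1260 to 5968 against 2425 and 2253. For 9 stem markers it was 20.5 to 35.8 against 34.6 and 30.4, and for 8 cycling markers 18.4 to 25.8 against 17.1 and 21.9. The summed levels of each of these lists overlapped between the groups. Whether other cells add to the Slc2a2 sums was not tested.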

How the data were processed

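Cells from the ileum were profiled with the 10x 3′ v2 chemistry, per the labels, which give the Cell Ranger version only with a question mark. The submitters' processing notes name the builds mm10 and GRCm38. The authors deposited 1 matrix of UMI counts for each library, without normalization. The 3′ reads carry no length factor, so levels were not ranked between genes. Depth per library is given with the results.

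Cells with under 500 genes or over 20% mitochondrial counts were left out, and 720 likely doublets (3.80%) were removed by simulated doublets. Counts were scaled to 10000 per cell, and 2000 variable genes, scaled within each library, gave 30 components and Leiden clusters (scanpy 1.11.5, leidenalg 0.10.2, resolution 1.0). Scaling within libraries was an alternative that became the default once the data had been seen. Without it no cluster was named stem-like or cycling-like, while Paneth-like cells were found in every library. An unnamed class then held 0 cells of sham 1 and 4 of resection 1, against 235, 427 and 523 of sham 2, sham 3 and resection 2. Clusters were named from marker lists, hence "-like", and classes depend on that naming.

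Counts were summed by class and library (20 cells or more in each library) and tested with edgeR 4.0.16 in R 4.3.3 (quasi-likelihood F-test, TMM scaling, filterByExpr, two-sided, Benjamini-Hochberg adjustment over all genes, threshold 0.05). The script was tested on simulated data. CPM of the epithelial classes and of all epithelial cells is TMM-scaled. Plain CPM was used for clusters, villus bins, T cell-like cells, marker sums and percentages of the enterocyte-like level. A pseudocount of 1 CPM was added before log2 ratios between members, classes or bins, and before within-set log2 differences. Single values were compared by exact permutation over the 10 ways to pick 2 of 5 libraries, which cannot give a p under 0.1. Alternatives were DESeq2 1.42.0, other scalings and filters, a library set term, a replicate block, each library left out, other clusterings, doublet and mitochondrial limits, another thinning depth (3000 UMIs) and 3 bins. The named genes are the 4 members, the 3 genes most like each in pattern (mean of at least 20 CPM in enterocyte-like cells), and up to 4 genes of each pathway list with the lowest p. The leading genes of clusters are named to identify them. The members and lists were chosen with earlier results of these data known. A gene of the pathway lists is not reported here by name.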

Additional observations from a re-analysis of the deposited data

How the results depend on the processing

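Slc2a2 kept its direction under all 18 alternatives in enterocyte-like cells, at 3.50 to 4.53 on the log2 scale, and passed the threshold under 7 of them. It passed with DESeq2 (4.10), without a filter on low counts (4.12), with the library set as a term (3.88), with a mitochondrial limit of 10% (4.28), without the cluster mostly of resection 1 plus the set term (3.87), with the block described below, and without resection 2 (4.53, adjusted p = 0.0230). Leaving out 1 library gave 3.50 to 4.53. Slc5a1 (0.0027 to 1.11), Slc2a5 (0.011 to 1.12) and Khk (0.30 to 0.57) passed under 0 of 18. The goblet-like call of Slc2a2 was lost with the set term (3.09), at Leiden resolution 0.5 (3.18), without scaling before clustering (3.20), with a mitochondrial limit of 30% (3.47) and without sham 1, 2 or 3 or resection 1 (2.63 to 4.59 when 1 library was left out), but kept without resection 2 (adjusted p = 0.0153). The Paneth-like value was 3.98 to 5.42 when 1 library was left out. The genes called in enterocyte-like cells numbered 0 with the design used, 67 with DESeq2, 241 without a filter, 17 with the set term, 12 with the 10% limit, 17 without that cluster plus the set term, and 0 to 3 when 1 library was left out. The cause of these shifts was not tested.

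The titles give sham and resection libraries shared numbers 1 and 2. With the replicate number as a block, Slc2a2 in enterocyte-like cells was 3.70 (edgeR adjusted p = 9.96e-05), and 148 genes were called. The block turned Slc5a1 in stem-like (-0.25) and cycling-like cells (-0.039), and Slc2a5 in cycling-like (-0.14) and goblet-like cells (-0.14), none of them a call. The deviations from the group mean of same-numbered libraries correlated at 0.607 and 0.210 over 10202 genes, but sham 3 and resection 2 also did, at 0.549. The deviations of the 2 resection libraries are mirror images, so these correlations are not separate observations and cannot decide whether the libraries were paired. With 2 shared numbers the libraries were not taken as pairs.

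Other values that changed sign were not calls. When 1 library was left out, Slc5a1 ran from -0.18 to 0.57 in stem-like cells (-0.16 without sham 3) and from -0.037 to 0.59 in cycling-like cells. Slc2a5 ran from -0.072 to 1.24 in cycling-like, from -0.047 to 1.29 in goblet-like and from -0.054 to 0.30 in Paneth-like cells, and Khk from -0.12 to 0.76 in Paneth-like cells. The difference in the share of positive stem-like cells for Slc5a1 was -0.618 percentage points, but 5.74 unthinned and 2.89 at 3000 UMIs, and for Slc2a5 in cycling-like cells -0.075, but 2.03 and 1.19. With plain totals in place of TMM the median of all genes moved to 0.24 in Paneth-like cells and 0.15 in all epithelial cells. Some classes had under 20 cells in a library at the 10% limit and could not be fitted.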
